A study of Glycine max with 30 samples.

Results

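The genes described here are the 29 soybean genes that the deposited gene ontology (GO) output placed under nucleosome assembly among the DEGs between the *3mlpa* and 3MWT lines, of 54175 genes in the count files. The members were the union of the genes listed under nucleosome assembly, DNA replication and cell cycle at any of the 5 seed developmental stages. Nucleosome assembly was listed at stage 1 with 15 genes, at stage 2 with 6 genes and at stage 5 with 20 genes, and at neither stage 3 nor stage 4. DNA replication and cell cycle were in none of the 5 outputs used here, so the genes are called nucleosome assembly genes throughout. The members were chosen by measured values, namely the difference in counts between *3mlpa* and 3MWT at a stage. Values of that contrast are therefore given as a description without a test. Tests are given only between stages, in the main on the mean of both lines. Tests between stages within a line are set beside them, and these use libraries of the contrast that chose the members.

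RNA from whole developing seeds, which hold cotyledons, endosperm and seed coat, was sequenced in 30 libraries, 3 per line and stage. *3mlpa* is a low phytic acid line homozygous for the mutant alleles *mips1*, *mrp-l* and *mrp-n*, and 3MWT is its sibling line with the non-mutant alleles MIPS1, MRP-L and MRP-N. Both are single inbred lines from the same cross and are not isogenic, so the mutations and the rest of the background cannot be told apart. Stages were set by the length of the seed, which was 2 to 4 mm in the youngest seeds (stage 1) and 10 to 12 mm in the oldest (stage 5), in steps of 2 mm, and each library came from a separate pool of untreated seeds.

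Nucleosomes are the basic units of chromatin, in which DNA is wrapped around an octamer of core histone proteins. In dividing cells the bulk of histone mRNA is made while DNA is copied, since new DNA has to be packed into new nucleosomes, whereas variant histones are also made outside that phase. In a young legume seed the cells of the embryo divide first and later stop dividing, expand and fill with storage protein and oil. A plant genome holds many near-identical histone genes.

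The members shared annotations that the rule did not use. Of the 29 genes, 28 were also listed under the cellular component nucleosome and under DNA binding, and 22 under nucleus. A further term, transcription initiation, was given to 7 of them. The exception was Glyma05g01120, which had the nucleus term but neither nucleosome nor DNA binding. The identifiers place the genes on 15 chromosomes, with 6 of them on chromosome 11. Glyma05g32200 and Glyma05g32210 are neighbours with 0 genes between them, and Glyma11g24062 and Glyma11g24236 have 1 gene between them. None of the 29 identifiers matched the available locus table, so no gene names are given and no histone class is assigned.

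Between 14150244 and 29476755 reads were counted on genes per library. Reads that aligned to several places were not counted, and their number differed between the lines, with 0.175 to 0.392 such alignments per counted read in *3mlpa* libraries and 0.516 to 2.76 in 3MWT libraries. Near-identical copies can lose reads in this way, so the level of any single member is uncertain where copies exist. The number of such alignments per counted read also differed by stage in 3MWT, with 1.05 to 2.76 at stage 1 and 0.675 to 0.913 at stage 5. In *3mlpa* it was 0.209 to 0.392 at stage 1 and 0.346 to 0.386 at stage 5. Its part in the contrasts of stages was not tested. Raffinose synthase RS2 (Glyma06g18890), an enzyme of oligosaccharide synthesis in filling seeds, was detected in all 30 libraries with 1.32 to 33.7 CPM (counts scaled to 1000000 per library), and the reference gene ubiquitin UBQ10 (Glyma07g32020) had 83.5 to 201.9 CPM. No source used here names markers of endosperm or seed coat, so the share of those tissues could not be checked. The 3 mutations are point mutations, so the level of the mutated genes checks no label.

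The summed level of the 29 genes was highest at the first and second stages and declined towards stage 5 in both lines. CPM are given after TMM scaling, a normalization that leaves out genes of extreme ratio or extreme level when libraries are compared. In *3mlpa* the sum was 2680 ± 50.9, 2878 ± 87.2, 2033 ± 433.0, 1423 ± 370.8 and 830.5 ± 233.5 CPM at stages 1 to 5 (SD, n = 3 each). In 3MWT it was 4331 ± 313.9, 4028 ± 609.7, 2933 ± 132.1, 2072 ± 151.9 and 1570 ± 331.1 CPM (SD, n = 3 each). The sum at stage 5 was thus 0.310 of that at stage 1 in *3mlpa* and 0.362 in 3MWT. In bulk seeds, fewer cells that express these genes and less RNA per cell cannot be told apart.

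**Figure D1:**
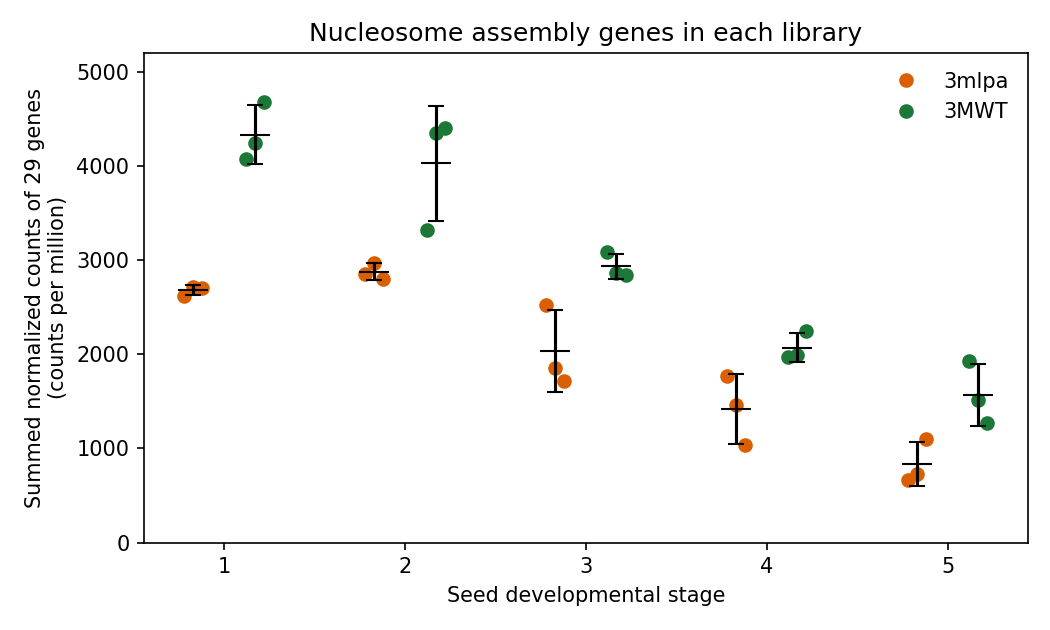
Summed TMM-normalized CPM of the 29 nucleosome assembly genes (vertical axis) in each of 30 libraries by seed developmental stage (horizontal axis), with *3mlpa* in orange and 3MWT in green. Points are libraries, and black bars give the mean ± SD of 3. The *3mlpa* means lie between 830.5 and 2878 CPM and the 3MWT means between 1570 and 4331 CPM.

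A few libraries stood apart from their group. At stage 3, *3mlpa* replicate 1 had a sum of 2527 CPM, against 1851 and 1721 CPM in the other replicates, and its 10 most counted genes held 3.96% of its counts, against 10.4% and 8.90%. At stage 4, *3mlpa* replicate 3 had a sum of 1035 CPM, against 1773 and 1461 CPM, and its 10 most counted genes held 21.3% of counts, against 10.9% and 12.2%. At stage 5, *3mlpa* replicate 3 had 1097 CPM, against 664.3 and 729.6 CPM. In 3MWT, replicate 1 of stage 2 had 3324 CPM, against 4350 and 4409 CPM. Replicate 1 of stage 5 in 3MWT had 1924 CPM, against 1517 and 1268 CPM. The part of these differences between libraries in the results was tested by leaving the libraries out.

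The members fell almost as one between the ends of the series. At stage 5 against stage 1, on the mean of both lines, 28 of the 29 genes were lower and 0 were higher (edgeR quasi-likelihood test, Benjamini-Hochberg adjusted p at or below 0.01), where over all 45815 genes tested 28.1% were lower and 26.1% were higher. The median log2 fold change over the members was -1.88, beside -0.10 over all genes. At an unadjusted p under 0.05, 0 members were higher, as with DESeq2. Of the 28, 25 fell by more than 2-fold and 11 by more than 4-fold. The shares of all genes that fell this far are not given. All 29 genes passed the filter on low counts. The count stayed at 28 under every alternative run on the mean of the lines. Within *3mlpa* alone the same test gave 28 lower and 1 higher, where 22.2% and 22.4% of all genes were lower and higher. Within 3MWT alone it gave 26 lower and 0 higher, also 0 higher at an unadjusted p under 0.05, where 20.8% and 19.8% of all genes were lower and higher. These fits within a line use libraries of the contrast that chose the members. The 6 libraries of a stage shared a sequencing lane, so stage and lane cannot be told apart. The share of counts held by the 10 most counted genes also rose with stage, to 26.4% at stage 5 against 3.48% at stage 1 in *3mlpa*, and to 24.4% against 4.04% in 3MWT, and its part in the fall was not tested.

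**Figure D2:**
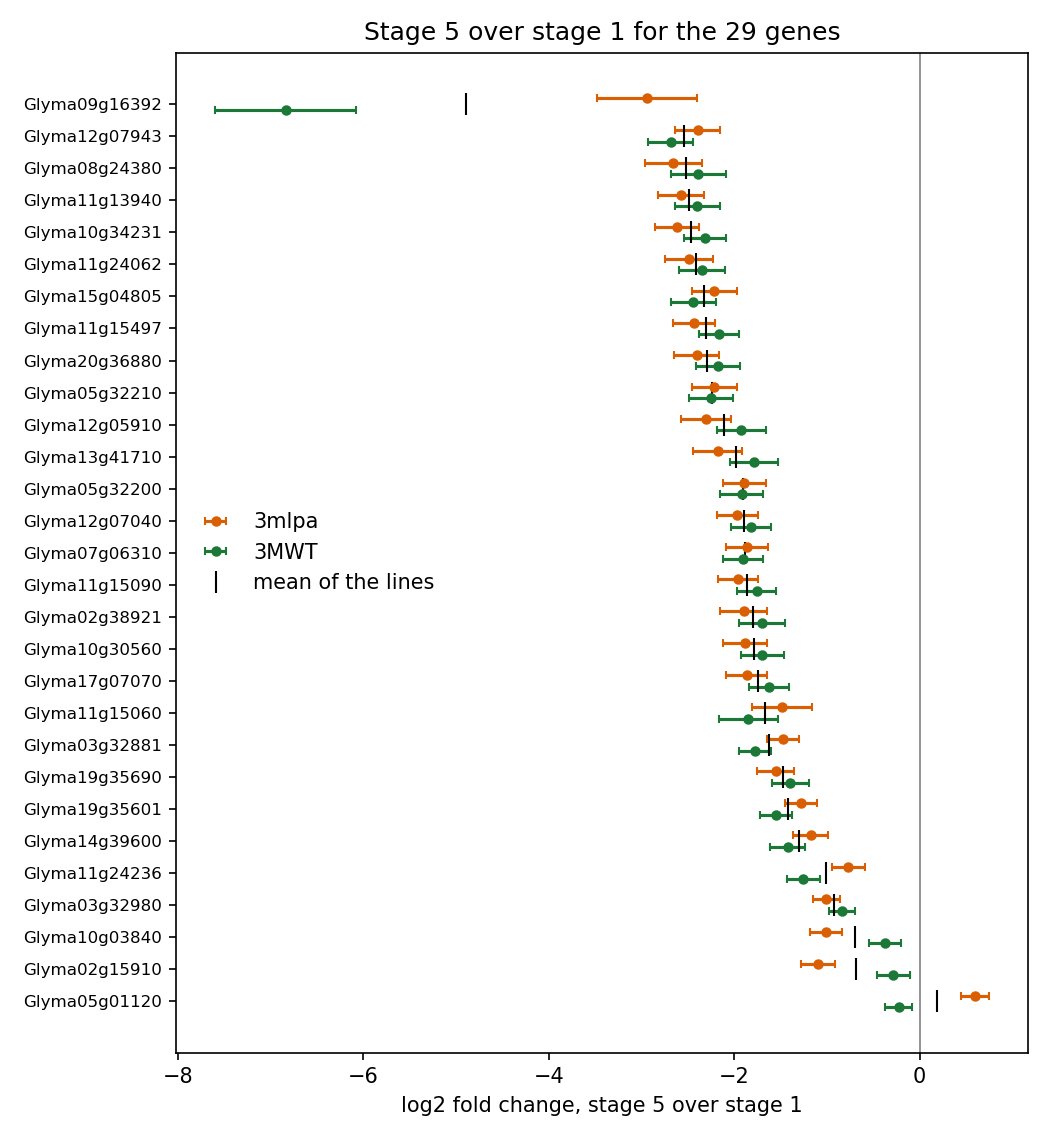
Log2 fold change of stage 5 over stage 1 (horizontal axis) for each of the 29 genes (vertical axis), within *3mlpa* (orange) and within 3MWT (green), with standard errors from the edgeR fit. The black tick is the mean of the lines. All ticks lie below 0 except that of Glyma05g01120 at 0.19, and Glyma09g16392 lies far to the left at -4.89.

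Among genes with the steepest falls was Glyma12g07943, a nucleosome gene that also has the transcription initiation term. It had 7.80, 10.0 and 14.2 CPM at stage 5 against 55.2, 62.7 and 51.5 CPM at stage 1 in *3mlpa*. In 3MWT it had 21.6, 15.2 and 11.6 CPM at stage 5 against 93.7, 108 and 109.9 CPM at stage 1. Every library of stage 5 was below every library of stage 1 in both lines, and the log2 fold change was -2.54 ± 0.17 (SE; edgeR adjusted p = 1.7e-12). Glyma08g24380, under nucleosome and DNA binding, followed with -2.52 ± 0.21 (SE; edgeR adjusted p = 1.3e-10). It had 8.34, 8.30 and 13.0 CPM at stage 5 against 64.2, 61.2 and 61.9 CPM at stage 1 in *3mlpa*, and 24.5, 18.7 and 12.0 CPM against 84.6, 100.4 and 104 CPM in 3MWT. Glyma11g13940, with the same terms, had 14.8, 17.2 and 24.4 CPM at stage 5 against 114, 112 and 111 CPM at stage 1 in *3mlpa*, and 44.5, 31.4 and 26.1 CPM against 172, 151 and 215 CPM in 3MWT. Here the log2 fold change was -2.48 ± 0.17 (SE; edgeR adjusted p = 4.4e-12), and for both genes the stages did not overlap in either line.

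The neighbouring genes Glyma05g32200 and Glyma05g32210, which were listed at all of stages 1, 2 and 5, moved alike. Glyma05g32200 had 8.42, 11.1 and 19.6 CPM at stage 5 against 47.5, 52.0 and 46.4 CPM at stage 1 in *3mlpa*, and 36.3, 25.6 and 20.8 CPM against 100.01, 87.0 and 126 CPM in 3MWT. Glyma05g32210 had 9.19, 12.4 and 16.3 CPM at stage 5 against 59.1, 58.7 and 59.4 CPM at stage 1 in *3mlpa*, and 34.3, 25.2 and 17.1 CPM against 111, 109.9 and 145 CPM in 3MWT. Their log2 fold changes were -1.90 ± 0.16 and -2.23 ± 0.17 (SE), with edgeR adjusted p-values of 1.8e-10 and 2.0e-11. Of the other genes listed at several stages, Glyma11g24062 fell by 2.42, Glyma11g15497 fell by 2.30 and Glyma11g15060 fell by 1.66 on the log2 scale, and each passed the same test.

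The subgroups by annotation overlapped in their falls. The 7 genes with the transcription initiation term had a median log2 fold change of -1.74, with a range of -2.54 to -1.01. The 14 genes with the nucleus term and no transcription initiation had a median of -1.79, and the 7 under nucleosome without nucleus had a median of -2.11. The 20 genes listed at stage 5 had a median of -1.94 and the other 9 had -1.62.

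The smallest falls belonged to the genes of highest normalized count. Glyma02g15910, listed only at stage 5, and Glyma10g03840, listed at stages 1 and 5, both have the nucleosome and nucleus terms, and they averaged 242.4 and 213.5 CPM over the 30 libraries. Since gene lengths are not in the files, these averages do not rank the transcripts. Glyma02g15910 had 84.2, 85.9 and 131 CPM at stage 5 against 198, 209 and 237 CPM at stage 1 in *3mlpa*, and 316, 256 and 247 CPM against 343, 301 and 352 CPM in 3MWT. The stages overlapped in 3MWT only. The log2 fold change over both lines was -0.69 ± 0.13 (SE; edgeR adjusted p = 3.2e-05), with -1.10 ± 0.18 within *3mlpa* and -0.28 ± 0.18 within 3MWT. Glyma10g03840 also had -0.69 ± 0.12 (SE; edgeR adjusted p = 2.8e-05), with -1.01 ± 0.18 within *3mlpa* and -0.38 ± 0.17 within 3MWT. The difference between the lines in these falls rests on the contrast that chose the genes and was not tested. The third of the small falls was that of Glyma03g32980, a gene listed at 3 stages, at -0.92 ± 0.10 (SE; edgeR adjusted p = 1.3e-08).

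Glyma05g01120 and Glyma09g16392 departed from the rest, and the first of them is singled out after its values were seen. Glyma05g01120, the gene without nucleosome and DNA binding terms, was the single member that did not pass the test between stages 5 and 1, at 0.19 ± 0.10 (SE; edgeR adjusted p = 0.12). It had 17.5, 19.5 and 19.5 CPM at stage 5 against 13.0, 11.8 and 12.6 CPM at stage 1 in *3mlpa*, so that stage 5 lay wholly above stage 1. In 3MWT it had 19.4, 17.9 and 16.7 CPM at stage 5 against 23.2, 16.0 and 23.7 CPM at stage 1, and the stages overlapped. The log2 fold change was 0.60 ± 0.15 (SE) within *3mlpa*, where this was the 1 member called higher, and -0.22 ± 0.15 (SE) within 3MWT, so that the mean of the lines combines opposite signs. The gene was listed only at stage 1, so these values within a line use the libraries that chose it. The difference between the lines rests on that contrast and was not tested. Across the 10 line and stage means its median correlation with the other members was -0.16, whereas the median over all 406 pairs of members was 0.98. These correlations are a description over 10 means that share libraries and the common decline.

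Glyma09g16392, with nucleosome and nucleus terms, had the lowest counts of the members and the steepest fall. It had 0.541, 2.68 and 0 CPM at stage 5 against 8.37, 7.72 and 9.03 CPM at stage 1 in *3mlpa*, and 0.203, 0.0652 and 0.0659 CPM against 12.7, 15.9 and 11.2 CPM in 3MWT. All stage 5 libraries were below all stage 1 libraries in both lines, and the log2 fold change was -4.89 ± 0.47 (SE; edgeR adjusted p = 1.5e-09). At stage 5 these levels stood for 7, 44 and 0 counts in *3mlpa* and 3, 1 and 1 counts in 3MWT, so the size of the fall depends on few reads.

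**Figure D3:**
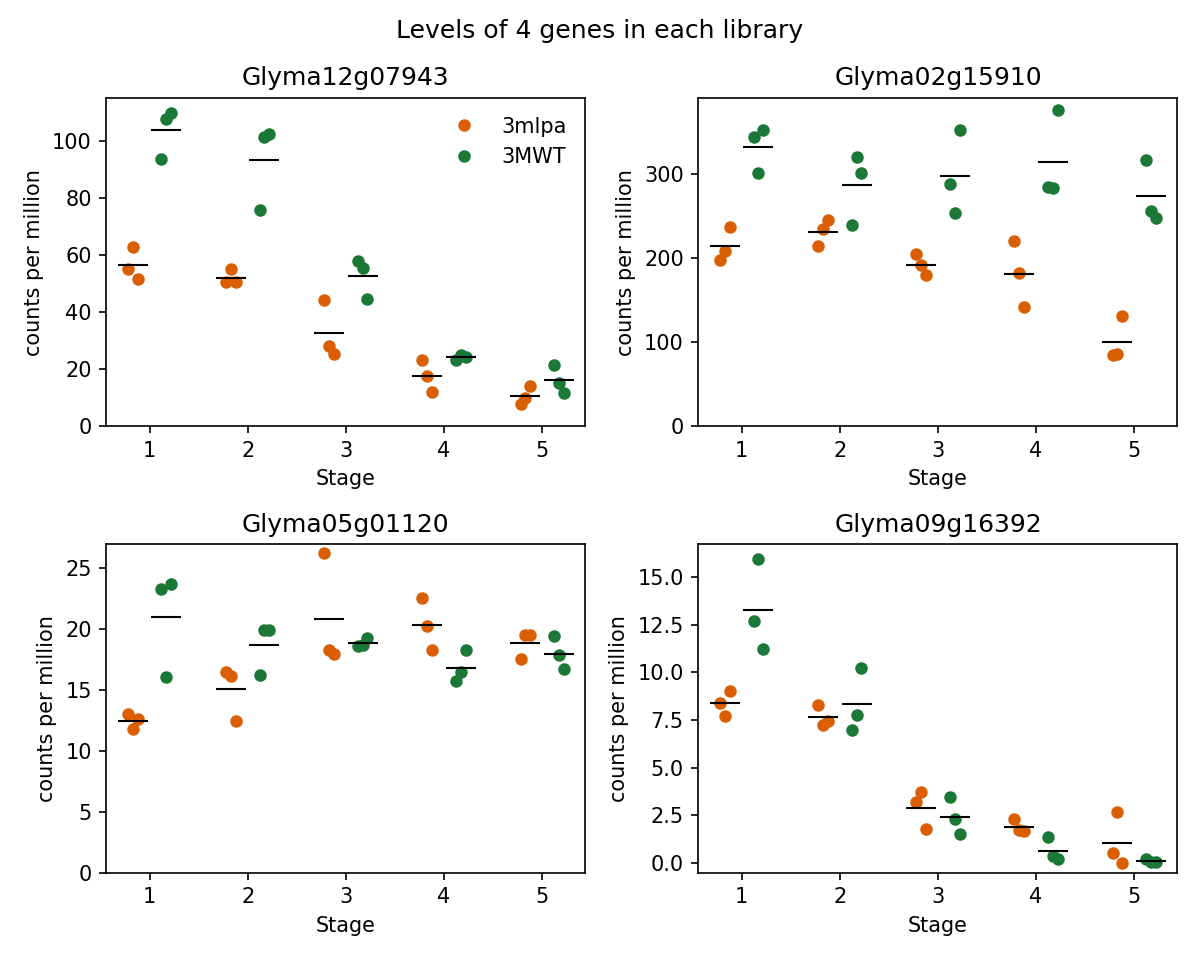
TMM-normalized CPM (vertical axes) in each library by stage (horizontal axes) for Glyma12g07943, Glyma02g15910, Glyma05g01120 and Glyma09g16392, with *3mlpa* in orange and 3MWT in green. Points are libraries and black bars are means of 3. Glyma12g07943 declines in both lines, Glyma02g15910 reaches 84.2 to 131 CPM at stage 5 in *3mlpa* against 247 to 316 CPM in 3MWT, and Glyma05g01120 stays between 11.8 and 26.2 CPM.

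On the mean of the lines, the fall was called after stage 2. At stage 2 against stage 1, 0 members were lower and 0 were higher by edgeR and likewise by DESeq2, and 0 in either direction had an unadjusted p under 0.05, where 7.59% of all genes were lower and 10.9% higher by edgeR. The median log2 fold change over the members was 0.02. By mean CPM, 23 members were highest at stage 2 in *3mlpa*, and 24 were highest at stage 1 in 3MWT. By these means the lines leaned in different directions at this step. The log2 fold change was below 0 for 5 members in *3mlpa* and for 24 in 3MWT, with medians of 0.10 and -0.09. This difference between the lines rests on libraries of the contrast that chose the members. It was not tested, and nothing is read from it. At stage 3 against stage 2, 16 members fell and 0 rose, with a median of -0.55, where 6.26% of all genes fell and 9.23% rose. At stage 4 against stage 3, 20 fell and 0 rose, with a median of -0.68, where 3.36% of all genes fell and 2.26% rose. At stage 5 against stage 4, 14 fell and 0 rose, with a median of -0.65, where 2.67% of all genes fell and 0.434% rose.

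Within a single line few members passed at these steps by edgeR. Stage 3 against stage 2 gave 1 lower member in *3mlpa* and 0 in 3MWT, beside 1.77% and 2.08% of all genes, with 22 lower in each line at an unadjusted p under 0.05. Stage 4 against stage 3 gave 0 in *3mlpa* and 1 in 3MWT, beside 0.770% and 0.365%, with 22 and 26 at an unadjusted p under 0.05. Stage 5 against stage 4 gave 7 in *3mlpa* and 0 in 3MWT, beside 1.42% and 0.122%, with 24 and 20 at an unadjusted p under 0.05. DESeq2 was not run within a line. These fits also use libraries of the contrast that chose the members, at stage 2 and stage 5 above all, so their counts are a description only.

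By gene, on the mean of the lines, 9 members passed the test at each of the last 3 steps, among them Glyma05g32210, Glyma08g24380, Glyma11g13940, Glyma11g15497 and Glyma11g24062. Glyma02g15910 and Glyma10g03840 passed only at the step to stage 5. A further 5 members passed at no single step, of which Glyma03g32980 had log2 fold changes of -0.30, -0.28 and -0.37 at the steps to stages 3, 4 and 5. The shares of all genes with these patterns of steps are not given, so the counts by pattern are a description only. The counts at single steps depended on single libraries, and the number of all genes called lower moved too. Leaving out 1 library at a time gave 8 to 23 lower members for stage 3 against stage 2, 8 to 22 for stage 4 against stage 3 and 3 to 25 for stage 5 against stage 4. With the library of fewest counts, 3MWT replicate 2 of stage 1, and the 3 *3mlpa* libraries named above left out together, the counts were 26, 16 and 27. Replicate 1 of stage 2 and replicate 1 of stage 5 in 3MWT stayed in that fit.

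Between the lines, the median level of the members was lower in *3mlpa* at every stage. The members were chosen on this contrast at stages 1, 2 and 5, and the libraries of stages 3 and 4 are given beside them without a test as well. Per library, the median log2 CPM over the 29 genes was taken, and its mean was 6.20 ± 0.01, 6.44 ± 0.04, 5.78 ± 0.37, 5.03 ± 0.46 and 4.26 ± 0.40 in *3mlpa* at stages 1 to 5 (SD, n = 3 each). In 3MWT it was 6.93 ± 0.22, 6.82 ± 0.16, 6.26 ± 0.12, 5.59 ± 0.11 and 5.03 ± 0.36 (SD, n = 3 each). The differences of *3mlpa* minus 3MWT were -0.73, -0.38, -0.48, -0.56 and -0.77 on the log2 scale. The summed CPM of *3mlpa* was 0.619, 0.715, 0.693, 0.687 and 0.529 of that of 3MWT. The higher number of uncounted alignments in 3MWT libraries, given above, went with the line at every stage, and its part in these differences was not tested.

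At stage 1 the 3 *3mlpa* libraries were all below the 3 3MWT libraries for 29 of 29 members, where this held for 17.5% of all genes. The count was 22 at stage 2 beside 23.0% of all genes, 16 at stage 3 beside 15.7%, 17 at stage 4 beside 13.6% and 11 at stage 5 beside 15.9%. Since this contrast chose the members, nothing is read from these counts. At stage 1 the listed member nearest to 0 had a log2 ratio of -0.67, and the most negative member not listed there had -0.68. At stage 2 the same values were -0.66 and -0.64. Over all listed genes the median log2 ratio was -0.82, -0.77 and -0.88 at stages 1, 2 and 5. Over the members not listed at the stage it was -0.63, -0.48 and -0.55. Genes were listed for this very difference, so nothing is read from the gap. The ratio was below 0 at all 5 stages for 27 members, and 5 members had all *3mlpa* libraries below all 3MWT libraries at every stage, which were Glyma03g32980, Glyma05g32200, Glyma05g32210, Glyma11g15497 and Glyma11g24062. The shares of all genes over the 5 stages together are not given, so nothing is read from these counts either.

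**Figure D4:**
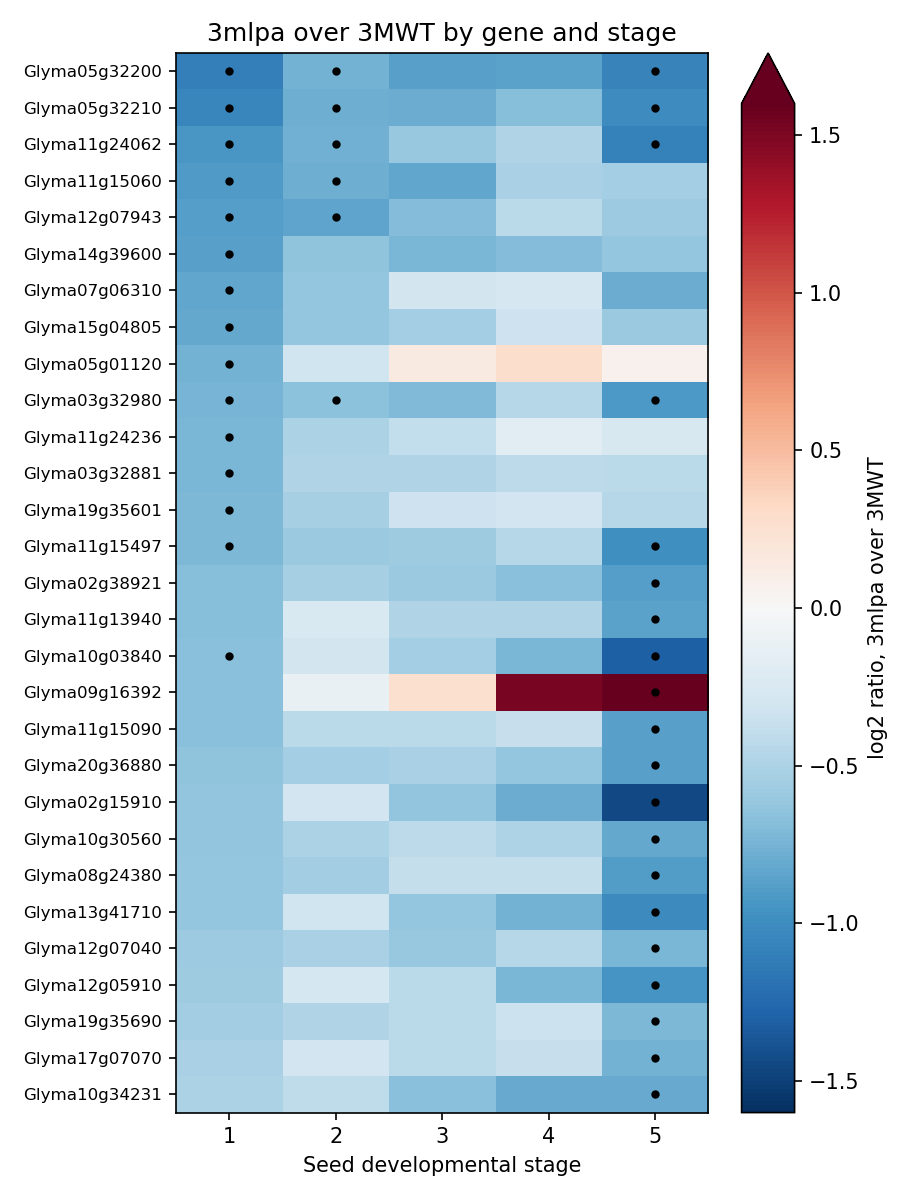
Log2 ratio of *3mlpa* over 3MWT (colour; blue is lower in *3mlpa*, red is higher) for the 29 genes (rows, ordered by the ratio at stage 1) at stages 1 to 5 (columns). A dot marks a gene listed under nucleosome assembly at that stage, and the colour scale ends below the value of 3.23 of Glyma09g16392 at stage 5. Ratios are negative in all genes at stages 1 and 2 and in 27 of 29 at stages 3, 4 and 5.

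The ratio of the lines was largest in different genes at different stages. At stages 1 and 2 the largest listed ratios were those of Glyma05g32200 at -1.10 ± 0.22 (SE) and Glyma12g07943 at -0.84 ± 0.22 (SE). Glyma12g07943 had 50.6, 55.2 and 50.4 CPM in *3mlpa* against 75.8, 101 and 102 CPM in 3MWT at stage 2, with no overlap. At stages 4 and 5 its ratio was -0.44 and -0.58 and the lines overlapped. At stage 5 the most negative ratios were those of Glyma02g15910, at -1.44 ± 0.18 (SE), and Glyma10g03840, at -1.30. Each member had its most negative ratio at stage 1 or stage 5, with 12 genes at stage 1 and 17 at stage 5. Every member was listed at stage 1 or stage 5, so the rule that chose the genes favours this pattern. Nothing is read from it. Glyma11g15060 had 5.56, 6.96 and 25.5 CPM in *3mlpa* at stage 5 against 24.0, 17.7 and 14.6 CPM in 3MWT, and its ratio was -0.55. Leaving out *3mlpa* replicate 1, 2 or 3 gave -0.20, -0.25 and -1.58, so its size depended on single libraries.

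Against the other members, Glyma09g16392 had a ratio of -0.67 at stage 1, with all *3mlpa* libraries below 3MWT, and of 1.52 at stage 4, with all of them above. At stage 4 it had 2.32, 1.73 and 1.67 CPM in *3mlpa* against 1.35, 0.395 and 0.220 CPM in 3MWT. At stage 5 its 51 counts in *3mlpa* against 5 in 3MWT gave a ratio of 9.85 after scaling (95% exact counting interval 3.96 to 31.6, which covers counting error only). Of the 51 counts, 44 came from *3mlpa* replicate 2, and without that library the fitted log2 ratio was 1.05 in place of 3.23. Glyma05g01120 had log2 ratios of -0.75, -0.31, 0.14, 0.28 and 0.07 at stages 1 to 5, with the lines apart only at stage 1.

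Other genes from the same GO outputs, all DEGs between the lines at some stage, were set beside the members for the step of stage 5 against stage 1 by the same edgeR test. Over all genes tested, 28.1% fell and 26.1% rose at this step, and several of the small lists below lie near these shares. Nucleosome organization, chromatin assembly and DNA packaging held the same 29 genes and no other, and cell division was in none of the outputs used here. Of 6 non-members under microtubule-based movement, a process of motor proteins that also serve cell division, 4 fell and 0 rose, with a median log2 fold change of -1.68. Of 27 non-members under DNA metabolic process, 5 fell and 6 rose, with a median of 0.17, and of 16 under DNA repair, 2 fell and 5 rose. Of 21 under microtubule-based process, which includes those 6, 8 fell and 4 rose. Of 6 under chromosome organization, 2 fell and 1 rose, and of 2 under chromosome, 1 fell and 0 rose. Translation, the making of protein on ribosomes, had 1 lower and 98 higher of 152, and photosynthesis had 0 lower and 54 higher of 60 with a median of 1.91. The decline of the nucleosome assembly genes thus stood beside a rise of photosynthesis genes, which mark green tissue, in the same libraries, and its part in the result was not tested.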

How the data were processed

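Raw counts per gene of 30 libraries were deposited. Per the labels and methods, the authors mapped single-end reads to Williams 82 (Glyma.Wm82.a1.0) with TopHat2 2.0.8 and counted them with HTSeq-count in Union mode, without normalization, and reads with several alignments were not counted. Strandedness is not given in the sources used here. Rows that name no gene were left out: reads outside genes were 13.1% to 29.7% of uniquely aligned reads, and ambiguous reads 0.0459% to 0.0721%. Of the deposited GO output (AgriGO) only the gene lists were used. The authors' tables of fold changes and p-values between the lines (DESeq 1.12.1) and their normalized abundances were not used.

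Counts were analysed with edgeR 4.0.16 in R 4.3.3 (TMM, quasi-likelihood test, 10 line and stage groups in 1 fit, contrasts of stages averaged over the lines). Contrasts of stages within a line came from the same fit. A gene entered the test with 10 or more counts in the 30 libraries together, and the Benjamini-Hochberg adjusted p threshold was 0.01. Standard errors are the log2 fold change over the root of F. Log2 CPM used a prior count of 2. Alternatives were DESeq2 size factors, the DESeq2 1.42.0 Wald test, no filter, filterByExpr, only the 12 libraries of the stages compared, a replicate block, a threshold of 0.05, a prior count of 0.5, a member filter, a mean over members and each library left out. Leaving 4 libraries out together was chosen after seeing the data.

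Members and gene lists were chosen with earlier results of these data known. Genes were named if listed at 2 or more stages, among the 4 called with the largest change in each direction, of the largest ratio of the lines among the genes listed at a stage, among the 2 of highest mean normalized count, or highest at stage 3, 4 or 5 and called at a step. Others were named after their values were seen. The libraries came from separate seed pools, so the p-values measure the spread between pools of 1 growth experiment.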

Additional observations from a re-analysis of the deposited data

Results flagged for a closer look

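Glyma09g16392 had ratios of the lines of opposite sign at 2 stages, while its mean level fell between them in both lines. From stage 1 to stage 4 it fell from 8.37 to 1.91 CPM in *3mlpa* and from 13.3 to 0.656 CPM in 3MWT. Its log2 ratio of *3mlpa* over 3MWT was 1.52 at stage 4, where all 3 *3mlpa* libraries lay above all 3 3MWT libraries, and -0.67 at stage 1, where all of them lay below. The difference between the stages was not tested, since the contrast of the lines chose the gene. At stage 4 it rests on 117 counts in *3mlpa* and 32 in 3MWT.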

How the results depend on the processing

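The 28 members lower at stage 5 than at stage 1 stayed 28 in all alternatives on the mean of the lines, and no member's fold change between these stages changed its direction or its side of the threshold. The single steps were less stable. For stage 3 against stage 2, 16 lower members became 26 at a threshold of 0.05 and 26 with 4 libraries left out together, and 8 to 23 with single libraries left out, where 7 of 12 libraries moved the count by over 1.5 times: 10, 9, 10 and 10 without 3MWT replicates 2 and 3 of stage 2 and 2 and 3 of stage 3, and 10, 10 and 8 without *3mlpa* replicate 2 of stage 2 and replicates 2 and 3 of stage 3. For stage 4 against stage 3, 20 became 7 with only the 12 libraries of the stages, and 8 to 22 with single libraries left out: 8, 13, 9, 10 and 11 without 3MWT replicates 1 and 2 of stage 3 and 1, 2 and 3 of stage 4, and 8 and 10 without *3mlpa* replicate 1 of stage 3 and replicate 3 of stage 4. For stage 5 against stage 4, 14 became 22 by DESeq2, 24 at a threshold of 0.05, 0 with only the 12 libraries and 27 with 4 libraries left out together, and 3 to 25 with single libraries left out. These were 9, 8, 6, 6 and 3 without 3MWT replicates 1, 2 and 3 of stage 4 and 2 and 3 of stage 5, and 3, 6, 23, 5, 7 and 25 without *3mlpa* replicates 1, 2 and 3 of stage 4 and 1, 2 and 3 of stage 5. For stage 2 against stage 1, 0 lower became 1 with only the 12 libraries, and single libraries left out gave 0. No alternative gave a member that was higher at any step. The cause was not tested in any of these. The difference of the lines, in the same order of stages 1 to 5, ranged over single libraries left out from -0.79 to -0.60, -0.47 to -0.32, -0.69 to -0.35, -0.74 to -0.30 and -0.98 to -0.58, and at stage 2 the mean over members gave -0.50 in place of -0.38. Deviations of same-numbered libraries from their group means had correlations of -0.53 to 0.48, with a median of 0.02 (135 pairs over all groups, 34 over 0.1). With 3 libraries per group this check cannot exclude a pairing by number, and the samples were treated as unpaired. A replicate block gave 28 lower members for stage 5 against stage 1, and 14, 18 and 13 for the last 3 steps. Few counts limit Glyma09g16392 at stages 4 and 5.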
